A study of Citrus maxima with 12 samples.

Results

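In pomelo fruit (Citrus maxima), 233 genes stood apart in diseased fruit of the cultivar Jinlan from diseased Jinsha and diseased Taoxi fruit. For these genes, diseased Jinsha and control Taoxi fruit each lay within a set bound of diseased Taoxi fruit. Of the 233 genes, 92 were higher in Jinlan (the high set) and 141 were lower (the low set), out of 32863 gene IDs in all. The members were chosen by their measured levels, so the size and direction of their Jinlan differences describe the choice and are given with no test. FPKM, a level that divides the fragments of a gene by its length and by the size of the library, was averaged per group and taken as log2(mean FPKM + 1). Only the 30123 IDs that begin with Cg were eligible, and 14232 of them had a group mean of at least 3 FPKM. A member had to lie within 0.585 log2 units (1.5-fold) between Jinsha and diseased Taoxi and within 0.8 between diseased and control Taoxi, bounds that 8044 IDs met. Jinlan then had to exceed both Jinsha and diseased Taoxi by at least 0.8, or to lie at least 0.8 below both. The smaller of these 2 differences is called the margin of a gene. Jinlan was not set against control Taoxi, and that gap was under 0.8 in 18 high-set and 26 low-set genes. Control Taoxi in the rule means 2 of its 3 libraries, since Taoxi control 1 was left out.

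The 4 groups were diseased Jinlan, diseased Jinsha, diseased Taoxi and control Taoxi, with 3 libraries of bulk RNA each, all from tissue labelled Fruit. The study concerned black spot disease of Jinggang honey pomelo, and its design text gives infection with D. citri as the disease and 13 days after infection as the time. Uninfected Jinlan and Jinsha fruit was not analysed here, so for a Jinlan difference cultivar and disease cannot be told apart. The labels name neither the layer of the fruit nor the number of fruits or trees behind a library. The errors below thus cover the spread among these libraries, part or all of which may be technical.

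Pomelo is a large-fruited citrus species that is grown as named cultivars. Cultivars of a species carry largely the same genes and differ in alleles, so a transcript can differ between them in healthy fruit as well as in the response to a pathogen. In plants, infection by fungi is known to change transcripts of defence proteins such as chitinases and of enzymes that strengthen the cell wall. The files hold IDs without gene names, and no reference was used, so the functions of the genes below are not stated. Which of them share reads with near-identical copies is also not known.

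Summed FPKM per library ran between 560349 and 577783, with 21345 to 22431 IDs above 0. The files give no read counts, so the depth behind each value is unknown. The library labelled Taoxi control 1 stood apart from its group, with a mean correlation across genes of 0.975 with diseased Jinlan, 0.960 with diseased Jinsha, 0.912 with diseased Taoxi and 0.891 with Taoxi controls 2 and 3. The choice of members left this library out, and Taoxi control below means controls 2 and 3 unless control 1 is named. Over the IDs with at least 3 FPKM, Jinlan was higher than Jinsha by a median of 0.11 and higher than diseased Taoxi by a median of 0.14 log2 units. Differences of members are to be read against these shifts.

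Most genes of the high set were modestly expressed and modestly higher in Jinlan. Their mean in Jinlan ranged from 3.02 to 748 FPKM with a median of 10.7 FPKM. Over the same 92 genes the median was 3.90 FPKM in Jinsha, 3.89 FPKM in diseased Taoxi and 3.57 FPKM in Taoxi control. In Jinlan 46 members were at 10 FPKM or more and 3 at 100 FPKM or more. The margin had a median of 0.99 and quartiles of 0.89 and 1.15 log2 units, and 8 members had a margin of 1.5 or more. The median over all 8044 IDs that met the bounds was 0.14.

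Cg2g036370 had the widest margin of the high set. It was at 12.1, 11.5 and 12.2 FPKM in Jinlan, at 1.09, 1.68 and 2.27 FPKM in Jinsha, at 0.684, 0.702 and 1.35 FPKM in diseased Taoxi, while Taoxi controls 2 and 3 held 1.77 and 1.59 FPKM. The 3 Jinlan libraries lay close together, and none of the other 8 came near them. The mean in Jinlan was 11.9 ± 0.39 FPKM (SD, n = 3), against 1.68 ± 0.59 FPKM in Jinsha and 0.914 ± 0.382 FPKM in diseased Taoxi (SD, n = 3 each). On the log2(FPKM + 1) scale Jinlan was higher by 2.29 ± 0.17 than Jinsha and by 2.77 ± 0.17 than diseased Taoxi (SE from a limma fit over all genes). Taoxi control 1 held 8.49 FPKM, on the Jinlan side of its group.

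Cg3g005530 followed in the high set. Jinlan held 27.4, 26.3 and 23.5 FPKM, Jinsha 5.30, 4.62 and 6.22 FPKM, diseased Taoxi 5.70, 6.33 and 5.69 FPKM, and Taoxi controls 2 and 3 held 5.17 and 6.30 FPKM. The other groups overlapped one another, and Jinlan overlapped none of them. The mean was 25.8 ± 2.0 FPKM in Jinlan (SD, n = 3) and between 5.38 and 5.90 FPKM in the other group means. Jinlan was higher by 2.07 ± 0.11 than Jinsha and by 1.95 ± 0.11 than diseased Taoxi on the log2(FPKM + 1) scale (SE, limma). Taoxi control 1 was at 23.9 FPKM. The ID next in number, Cg3g005540, was itself a member with a higher level, with 76.3 ± 6.4 FPKM in Jinlan, 31.0 ± 1.1 FPKM in Jinsha and 35.4 ± 3.6 FPKM in diseased Taoxi (SD, n = 3 each).

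The next ranks of the high set spanned a wide range of levels. The gene with the third-widest margin had a mean of 18.7 FPKM in Jinlan against 4.36 FPKM in Jinsha, 4.06 FPKM in diseased Taoxi and 6.16 FPKM in Taoxi control. The gene after it stood at 5.95 FPKM in Jinlan against 1.02, 0.819 and 1.15 FPKM in the same groups. The next was abundant, with 227 FPKM in Jinlan, 66.0 FPKM in Jinsha, 67.3 FPKM in diseased Taoxi and 53.4 FPKM in Taoxi control. The most abundant member of the set lay near its threshold, with a mean of 748 ± 16 FPKM in Jinlan against 425 ± 30 FPKM in Jinsha and 428 ± 106 FPKM in diseased Taoxi (SD, n = 3 each).

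**Figure D1:**
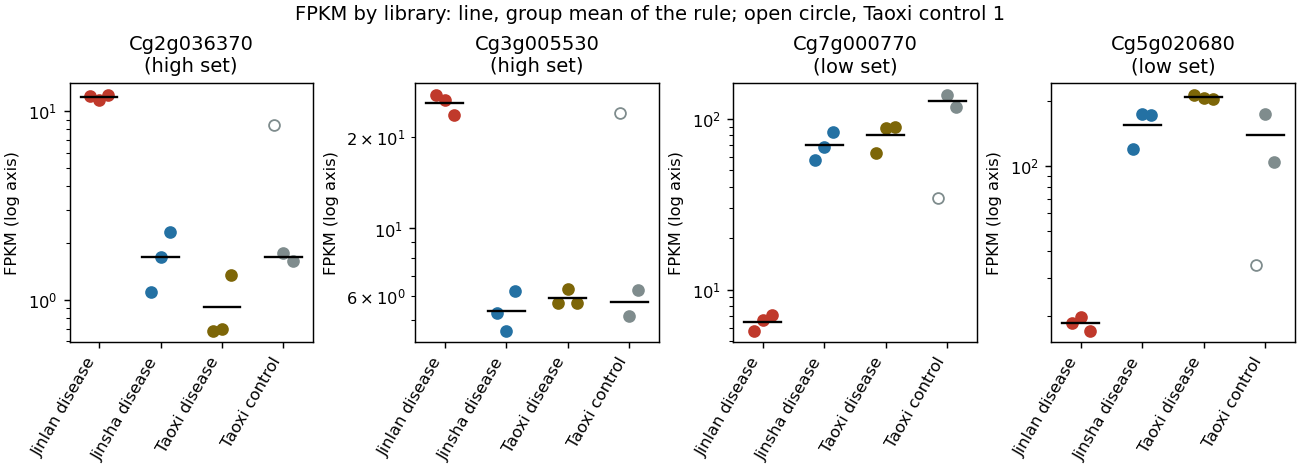
FPKM on a log axis in each library for the 2 genes of widest margin in the high set (Cg2g036370, Cg3g005530) and in the low set (Cg7g000770, Cg5g020680); lines are group means without Taoxi control 1, which is the open circle. The 3 Jinlan libraries lie beyond all 8 other filled points in each panel, and Taoxi control 1 lies between Jinlan and the other Taoxi controls in 3 of the 4 panels and among the Jinlan libraries for Cg3g005530.

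The low set reached wider margins than the high set and held more abundant genes outside Jinlan. The rule itself puts low-set genes higher outside Jinlan than in it, so the levels outside Jinlan in part describe the choice. The mean in Jinlan ranged from 0.341 to 531 FPKM with a median of 10.3 FPKM. Over the same 141 genes the median was 31.1 FPKM in Jinsha, 35.9 FPKM in diseased Taoxi and 34.1 FPKM in Taoxi control. The margin had a median of 1.10 and quartiles of 0.92 and 1.37 log2 units. It reached 1.5 in 25 members, 2 in 10 and 3 in 1. No member of the low set was at 0 in any Jinlan library, and 10 had a Jinlan mean under 1 FPKM, so these genes were low in Jinlan and not unlisted there. Whether fewer cells of a type or less RNA per cell gave such a level cannot be told apart in RNA from bulk fruit.

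Cg7g000770 had the widest margin of all members. Its Jinlan libraries held 5.76, 6.62 and 7.13 FPKM, those of Jinsha 57.7, 68.7 and 83.4 FPKM, those of diseased Taoxi 62.7, 88.6 and 89.1 FPKM, and Taoxi controls 2 and 3 held 138 and 117 FPKM. Jinlan lay far below all the others, while Jinsha and diseased Taoxi overlapped. The mean was 6.50 ± 0.69 FPKM in Jinlan, 69.9 ± 12.9 FPKM in Jinsha and 80.1 ± 15.1 FPKM in diseased Taoxi (SD, n = 3 each). The difference on the log2(FPKM + 1) scale was -3.23 ± 0.16 between Jinlan and Jinsha and -3.42 ± 0.16 between Jinlan and diseased Taoxi (SE, limma). Diseased Taoxi was itself below Taoxi control by 0.66 log2 units in the group means, inside the bound. Taoxi control 1 held 34.3 FPKM, apart from both Jinlan and its own group.

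Cg5g020680 was the second of the low set. It was at 18.6, 20.0 and 17.2 FPKM in Jinlan, at 120, 174 and 171 FPKM in Jinsha, at 213, 205 and 204 FPKM in diseased Taoxi, while Taoxi controls 2 and 3 held 174 and 103 FPKM. Jinlan again stood alone, and Taoxi controls 2 and 3 lay further apart than the Jinsha libraries. The mean was 18.6 ± 1.4 FPKM in Jinlan, 155 ± 30 FPKM in Jinsha and 207 ± 4.9 FPKM in diseased Taoxi (SD, n = 3 each), with differences of -2.97 ± 0.18 from Jinsha and -3.41 ± 0.18 from diseased Taoxi (SE, limma, log2 scale). Taoxi control 1 was at 34.6 FPKM.

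The next 3 genes of the low set all had Jinlan means of a few FPKM. The first of them held 2.60 FPKM in Jinlan against 25.9 FPKM in Jinsha, 28.5 FPKM in diseased Taoxi and 33.9 FPKM in Taoxi control. The next held 5.57 FPKM in Jinlan against 37.0, 44.7 and 54.0 FPKM in the same groups. The last held 1.59 FPKM in Jinlan against 17.3, 12.9 and 12.6 FPKM. At the other end of the scale of levels, the most abundant member of the low set had 531 ± 70 FPKM in Jinlan against 991 ± 176 FPKM in Jinsha and 962 ± 49 FPKM in diseased Taoxi (SD, n = 3 each).

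**Figure D2:**
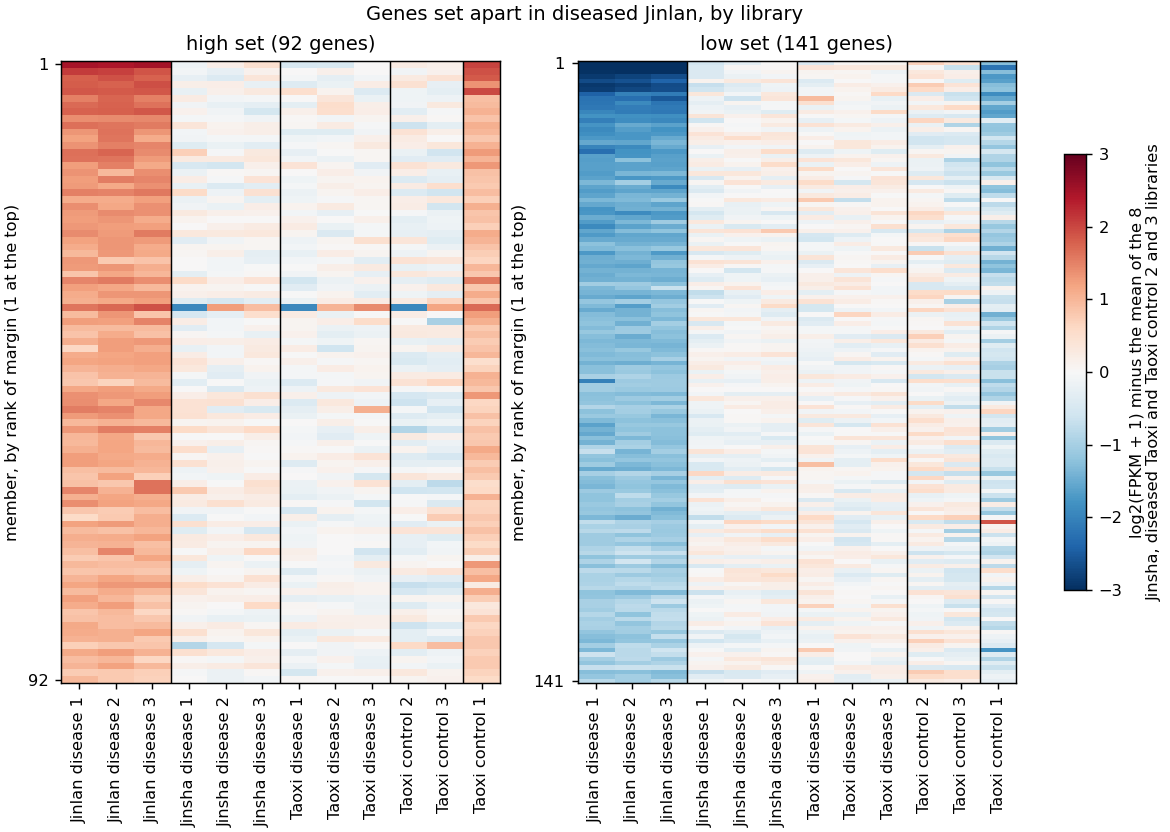
Each row is a member, ordered by margin, and each column a library; the colour is log2(FPKM + 1) minus the mean of the 8 libraries of Jinsha, diseased Taoxi and Taoxi controls 2 and 3. The 92 high-set rows are red and the 141 low-set rows blue in the 3 Jinlan columns and pale in those 8, and the last column, Taoxi control 1, carries the Jinlan colour in most high-set rows and in part of the low-set rows.

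Overlap between Jinlan and the other 8 libraries of the rule was rare. Taoxi control 1, which is not among them, lay within the range of the Jinlan libraries in 20 high-set and 9 low-set genes. That position was not counted over all IDs. The 3 Jinlan libraries lay outside the range of the other 8 in 90 of 92 high-set genes and in 140 of 141 low-set genes. Over all IDs with at least 3 FPKM, Jinlan lay above the other 8 in 19.8% and below them in 7.46%, and since the members were chosen on these libraries nothing is read from the difference. The exceptions were Cg5g009980 and Cg8g013820 in the high set and Cg8g012370 in the low set, named here because their values were exceptions. In Cg5g009980 the Jinlan libraries were at 87.1, 93.9 and 95.5 FPKM and Taoxi controls 2 and 3 at 80.4 and 101 FPKM, so that control Taoxi and Jinlan overlapped. In Cg8g013820 Jinlan was at 3.85, 4.55 and 5.91 FPKM and Taoxi control 3 at 4.50 FPKM. In Cg8g012370 Jinlan was at 39.4, 40.5 and 32.3 FPKM and Taoxi control 3 at 34.3 FPKM.

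The within-group SD, pooled over the 4 groups on the log2(FPKM + 1) scale, had a median of 0.16 in the high set, 0.18 in the low set and 0.10 over the IDs that met the bounds. The widest belonged to Cg1g011330 of the high set, at 1.59. It was listed at 0 in Jinsha 1, diseased Taoxi 1 and Taoxi control 2, and at 6.21 to 9.14 FPKM in the other libraries of those groups, against 10.6, 11.6 and 13.4 FPKM in Jinlan. An exact 0 beside such values can be a failed estimate, but the cause was not tested.

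All 233 members entered the limma fit of 17362 genes over the 11 libraries. Jinlan passed against both Jinsha and diseased Taoxi (adjusted p below 0.05 in each, limma with Benjamini-Hochberg adjustment over all genes) in 91 of 92 high-set and 141 of 141 low-set genes. The gene that did not pass was Cg1g011330. In the whole fit 16.8% of genes passed both as higher and 6.47% as lower. The rule used both contrasts, so nothing is read from these counts.

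Within the bounds, the other groups still differed from one another in part of the members. Jinsha and diseased Taoxi differed in the limma fit (adjusted p below 0.05) in 31 of 92 high-set and 56 of 141 low-set genes, against 71.3% of all genes tested. Diseased and control Taoxi differed in 25 of 92 high-set and 56 of 141 low-set genes (limma, adjusted p below 0.05), against 30.0% of all genes. Both contrasts were bounded by the rule, so the shares are a description only. Jinsha was above diseased Taoxi in 57.6% of the high set and 43.3% of the low set, beside 49.9% of the IDs that met the bounds. Diseased Taoxi was above Taoxi control in 59.8% of the high set and 53.2% of the low set, beside 56.8%.

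The rule did not bound the distance of Jinlan from Taoxi control directly. That gap reached 0.8 log2 units in 74 of 92 high-set and 115 of 141 low-set genes. It was wider than the gaps to both Jinsha and diseased Taoxi in 49 high-set and 56 low-set genes, and narrower than both in 30 and 52. In 2 high-set and 5 low-set genes Jinlan and Taoxi control lay within 0.4 of each other. For Cg5g009980, the closest of the high set, the mean was 92.2 ± 4.5 FPKM in Jinlan (SD, n = 3), 38.6 ± 11.2 FPKM in Jinsha, 52.0 ± 2.9 FPKM in diseased Taoxi (SD, n = 3 each) and 90.6 ± 14.4 FPKM in Taoxi control (SD, n = 2). This gene was level between Jinlan and control Taoxi and lower in both other diseased groups.

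**Figure D3:**
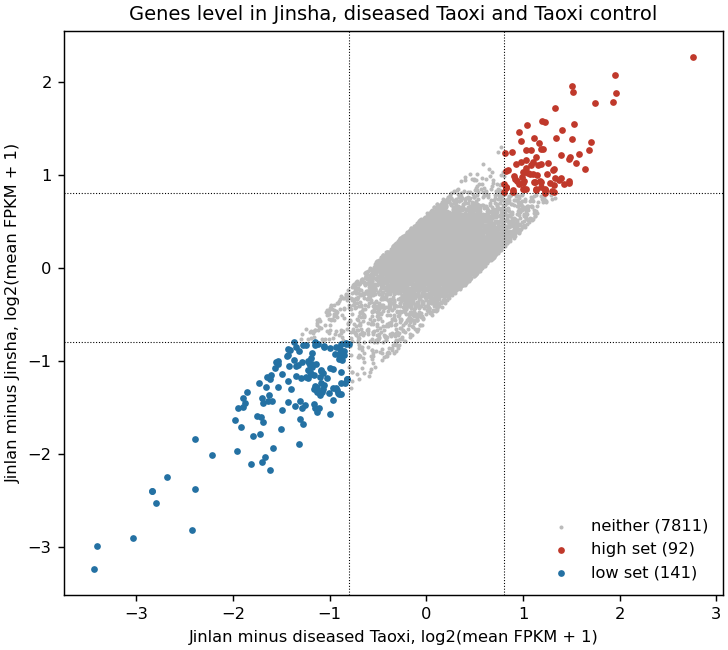
Difference of Jinlan from Jinsha (vertical) and from diseased Taoxi (horizontal) in log2(mean FPKM + 1) for the 8044 IDs that met the bounds; dotted lines mark 0.8 in either direction. The cloud of 7811 other IDs is centred slightly above 0 and runs up to the lines without a break, and the low set (141) reaches further from it than the high set (92).

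The threshold cut through a continuous range of values. Among IDs that met the bounds, 80 had a margin from 0.7 to 0.8 toward higher Jinlan levels and 24 from 0.8 to 0.9. Toward lower levels the counts were 34 and 30. The high-set gene just inside was at 14.9 FPKM in Jinlan, 7.49 FPKM in Jinsha and 8.11 FPKM in diseased Taoxi. The gene just outside was at 70.9, 35.2 and 40.3 FPKM in the same groups. On the low side the gene just inside held 61.3 FPKM in Jinlan against 109 FPKM in Jinsha and 108 FPKM in diseased Taoxi, and the one just outside 7.43 FPKM against 16.6 and 13.7 FPKM. The bounds removed many genes as well. Of 212 IDs that were at least 0.8 higher in Jinlan than in both, 95 were lost because Jinsha and diseased Taoxi differed and 25 because diseased and control Taoxi did, and of 321 that were lower these counts were 154 and 26.

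The differences were also read in libraries left out of a repeated choice. The same libraries took part in choosing the members above. The rule was applied again without replicate 1 of each group, and the genes it chose were read in Jinlan 1, Jinsha 1 and diseased Taoxi 1, and likewise for replicates 2 and 3. Of 110 genes chosen as high without replicate 1, 59 (53.6%) had a gap of 0.8 or more to both other libraries in replicate 1, against 1.50% of all IDs with at least 3 FPKM. The values were 59 of 92 (64.1%) against 2.06% in replicate 2, and 61 of 109 (56.0%) against 1.86% in replicate 3. Jinlan lay above both other libraries by any amount in 97.3%, 93.5% and 95.4% of these genes, against 38.0%, 38.3% and 41.1% of all IDs with at least 3 FPKM. The direction was kept by more genes than the full gap of 0.8, but it is a weaker request that every gene with the full gap also meets.

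The genes chosen as low had the gap at higher shares, but in replicate 2 the share was close to that of the high genes (64.1%). Their median margins over all libraries were also wider, at 1.08 to 1.13 against 0.93 to 0.98 for the genes chosen as high. Of 120 genes chosen as low without replicate 1, 92 (76.7%) had the gap in replicate 1, against 2.55% of all IDs. In replicate 2 it was 86 of 129 (66.7%) against 2.43%, and in replicate 3 it was 115 of 155 (74.2%) against 2.40%. Jinlan lay below both other libraries in 98.3%, 97.7% and 98.7% of these genes, against 18.8%, 18.6% and 17.4% of all IDs. The median gap in the left-out replicate was 0.82, 0.96 and 0.87 log2 units for the genes chosen as high and 1.07, 0.99 and 1.09 for those chosen as low. In 4 genes chosen as low, Jinlan instead lay more than 2 log2 units above the lower of the other libraries in the left-out replicate. Whether the 2 sets differ in how often the gap was kept was not tested. A left-out library came from the same group as those kept, so whatever its group shares was not left out. The shares of all IDs were not held to the bounds of the rule. The shares in the left-out replicates are therefore a description only.

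**Figure D4:**
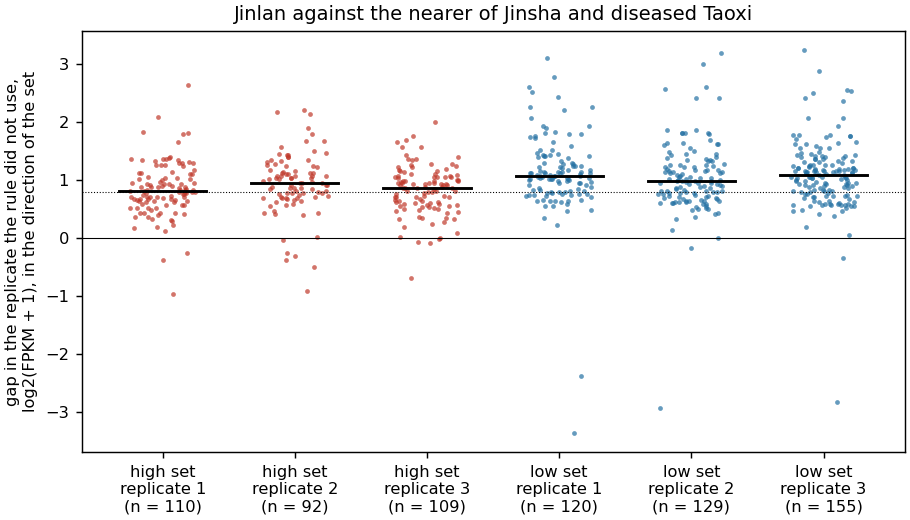
Each point is a gene chosen without the named replicate, and the vertical axis is its gap in that replicate, in log2(FPKM + 1), the smaller of the differences of Jinlan from Jinsha and from diseased Taoxi, signed so that the direction of the set is positive. Black bars are medians, which lie between 0.82 and 1.09, the dotted line marks 0.8, and 4 genes chosen as low lie below -2.

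Taoxi control 1 was not used by the rule and is given on its own, as 1 library with no test. Its position was set to 0 at the mean of the Jinsha, diseased Taoxi and Taoxi control group means and to 1 at the Jinlan mean, on the log2(FPKM + 1) scale. In the high set the position had a median of 0.72 and quartiles of 0.62 and 0.89. The library was nearer to Jinlan in 83 of 92 genes (90.2%), beside 89.3% of all 1630 IDs with at least 3 FPKM in which Jinlan was higher than that mean by 0.8. In the low set the median position was 0.52 with quartiles of 0.24 and 0.73. It was nearer to Jinlan in 73 of 141 genes (51.8%), beside 56.4% of the 1140 IDs in which Jinlan was lower by 0.8. Both shares were near their background, which includes the members, so nothing particular to the members is read from them.

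Single genes showed how far the library departed from its group. It lay above Taoxi controls 2 and 3 in 91 of 92 high-set genes (98.9%), beside 53.3% of all IDs with at least 3 FPKM and 98.8% of the 1630 in which Jinlan was higher. It lay below both in 115 of 141 low-set genes (81.6%), beside 37.4% of all IDs and 92.1% of the 1140 in which Jinlan was lower. The rule used controls 2 and 3 and not control 1, so the choice of members may bear on these shares, which was not tested. It fell beyond the Jinlan mean in 12 high-set and 8 low-set genes, and on the far side of the other groups in 15 low-set genes and no high-set gene. These positions were not counted over all IDs, so nothing particular to the sets is read from them. The lowest position, -2.29, was a low-set gene at 50.2 FPKM in Taoxi control 1, 6.59 FPKM in Jinlan, 17.6 FPKM in Jinsha, 13.5 FPKM in diseased Taoxi and 8.27 FPKM in Taoxi control.

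**Figure D5:**
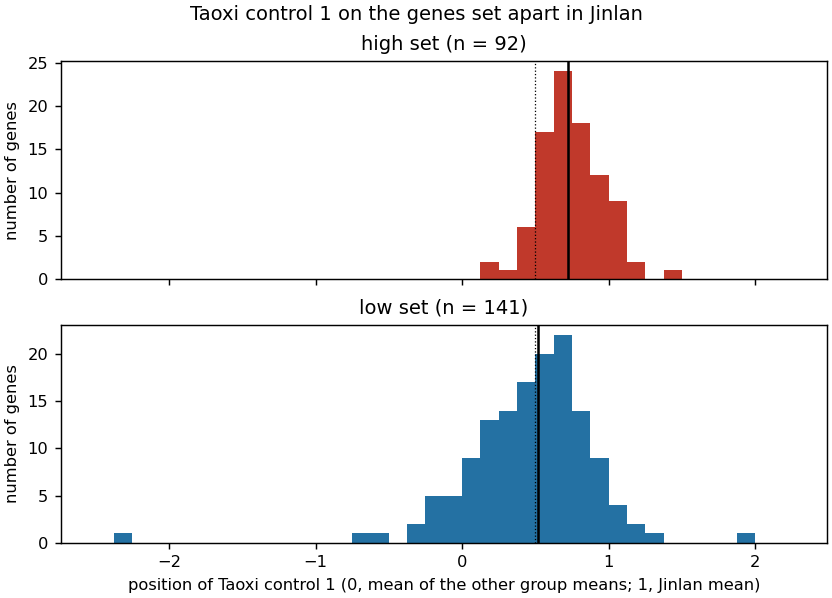
Number of genes by the position of Taoxi control 1 between the mean of the other group means (0) and the Jinlan mean (1), for the high set (above) and the low set (below); the solid line is the median and the dotted line marks 0.5. The high set is gathered around 0.72 with no gene below 0, and the low set is spread around 0.52 with 15 genes below 0. Other IDs are not shown.

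Some members stood near one another in the numbering of the IDs, which was described and not tested. Genes whose IDs share the digit after Cg and differ by at most 10, the step between successive IDs, formed 3 pairs within the high set and 4 within the low set. Thus 6.52% of high-set genes had another high-set gene at that distance, beside 0.766% of all IDs with at least 3 FPKM. For low-set genes and low-set neighbours the values were 5.67% and 1.20%. Members of opposite sets were also neighbours, since 4.35% of high-set genes had a low-set gene at that distance, beside 1.20% of all IDs, and 2.84% of low-set genes a high-set gene, beside 0.766%. Each of these opposite-set shares rested on 4 genes. Within 100 numbers the same-set shares were 21.7% beside 6.12% for the high set and 17.0% beside 10.4% for the low set. The opposite-set shares at that distance were near those of all IDs. They were 10.9% of high-set genes beside 10.4%, and 7.09% of low-set genes beside 6.12%. The longest chains with steps of at most 100 held 3 high-set genes and 4 low-set genes.

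With Jinsha and Jinlan exchanged in the rule, 181 genes were set apart as higher and 92 as lower in Jinsha. Jinlan thus had more genes set apart below than above, and Jinsha the reverse. This order of the counts held under median-ratio, upper-quartile and quantile scaling and after rescaling to TPM, and it was not tested. With a gap of 0.6 in place of 0.8 the order in Jinlan turned, with 255 high and 228 low. The balance in Jinlan moved with the scaling and with the pseudocount. High-set genes made up 39.5% of members as deposited, 24.2% with median-ratio scaling (62 high, 194 low), 29.6% with upper-quartile scaling (71 high, 169 low), 29.2% with quantile normalization (76 high, 184 low) and 47.0% after rescaling to TPM (135 high, 152 low). Median-ratio scaling brought the median difference of Jinlan to -0.01 from Jinsha and -0.03 from diseased Taoxi. Rescaling to TPM left the median difference from Jinsha at 0.11. It raised all values while the pseudocount and the level minimum stayed the same. Without rescaling, a pseudocount of 0.5 gave 119 high and 150 low, and one of 0.1 gave 129 high and 153 low. What moved the balance was not tested.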

How the data were processed

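RNA of pomelo fruit was sequenced in 12 libraries, made with a SMARTER mRNA-Seq kit per the labels' protocols. The authors deposited FPKM values for 32863 gene IDs in 1 table. Not given in the sources used here: aligner, counter, genome build, annotation. Depth is unknown. Columns were matched to samples by title, and 6 columns, named with the same control code as the Taoxi controls but matching no labelled sample, were not analysed here. The rule on members was applied to the deposited FPKM with Python 3.11.15 and pandas 2.3.3, leaving out Taoxi control 1. For standard errors, log2(FPKM + 1) of genes that reached 1 FPKM in 3 or more of the 11 libraries was fitted with limma 3.58.1 in R 4.3.3, with 1 mean per group, a trended variance prior and Benjamini-Hochberg adjustment over all genes tested. Fold changes on this scale understate the change of low genes. The rule and the fit were run on simulated data with planted differences. That run checks the code and bears on no result given here. The members and lists were chosen with earlier results of these data known. Gene lists set as search terms on descriptions could not be filled, since the IDs carry none. IDs are named by a rule, the 2 of widest margin per set whose Jinlan libraries did not overlap the others. Other IDs are named as exceptions or neighbours, after their values had been seen. No member had the values of another ID. Alternatives were other pseudocounts (0.1 and 0.5), level minimums, thresholds, scalings and priors, other libraries in the fit, the replicate number as a block, and leaving out each library in turn.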

Additional observations from a re-analysis of the deposited data

Results flagged for a closer look

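Taoxi control 1, the library that took no part in the choice of members, lay apart from the other Taoxi controls on most members. It lay above Taoxi controls 2 and 3 in 91 of 92 high-set genes, by a median of 0.93 log2 units over their mean, and below both in 115 of 141 low-set genes, with a median of -0.66. The shares, 98.9% and 81.6%, stand beside 98.8% and 92.1% of all IDs with at least 3 FPKM in which Jinlan was higher or lower by 0.8. The high-set share was near that of all such IDs and the low-set share was below it. The rule used Taoxi controls 2 and 3, so nothing particular to the members is read from either share. The cause was not tested. Groups of 3 libraries were not tested for single deviating libraries.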

How the results depend on the processing

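The number of members followed the thresholds. With a gap of 1 in place of 0.8 there were 44 high-set genes, with a gap of 0.6 there were 255 high and 228 low (the order of the sets turned), with both bounds at 0.4 there were 54 and 63, and with a minimum of 10 FPKM there were 46 high. Under the other settings, scalings included, both counts stayed within 1.5 times 92 and 141, but the members changed in part. A pseudocount of 0.1 gave 129 high and 153 low, of which 73 and 131 were among the 92 and 141. With a pseudocount of 0.5 there were 119 and 150, of which 83 and 135 were among them. Of the 92 and 141 genes, 57 and 136 were kept with median-ratio scaling, 60 and 131 under quantile normalization, 67 and 138 under upper-quartile scaling and 85 and 132 after rescaling to TPM. Leaving out 1 library at a time gave 88 to 109 high-set genes, of which 78 to 89 were among the 92, and 124 to 148 low-set genes, of which 113 to 137 were among the 141. Asking only for the direction in the left-out replicate raised its mean share of genes to 95.4% from 57.9% in the high set and to 98.2% from 72.5% in the low set, since that request is weaker. Members passing in both Jinlan contrasts numbered 90 to 91 and 140 to 141 without 1 library, and 83 and 138 with Taoxi control 1 in the fit. With the replicate number as a block they were 91 and 141, as without it. Same-numbered libraries deviated from their group means with correlations of -0.22 to 0.14, over 0.1 in 2 of 15 pairs, so the numbers were not taken to pair samples. Values near 1 FPKM rest on unknown depth and limit the lowest members most.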

Other observations

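In 4 pairs of IDs next to each other in number, one was in the high set and the other in the low set, which were picked out after their values had been seen. In the pair Cg2g008970 and Cg2g008960 the levels changed places between groups. The high-set gene Cg2g008970 had 18.7 FPKM in Jinlan, 4.36 FPKM in Jinsha, 4.06 FPKM in diseased Taoxi and 6.16 FPKM in Taoxi control, and the low-set gene Cg2g008960 had 5.84, 20.2, 15.9 and 27.6 FPKM. Their summed FPKM was 24.5 in Jinlan, 24.6 in Jinsha, 20.0 in diseased Taoxi and 33.7 in Taoxi control. The sums of the other 3 pairs were 6.30, 21.4, 28.9 and 43.1 FPKM in the same groups for one of them, 29.9, 54.7, 75.4 and 59.1 FPKM for another and 4.03, 6.10, 4.52 and 4.64 FPKM for the last. Whether the IDs of a pair are copies that share reads was not tested.

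IDs that begin with NewGene lay outside the rule. Among 766 of them with a group mean of at least 3 FPKM, 5 would have entered the high set and 3 the low set by the same thresholds.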
